A study of Homo sapiens with 6 samples.

Results

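hsa-miR-1246 and hsa-miR-1290 are short RNAs that are often counted among the miRNAs of extracellular vesicles (EVs). Both names were taken from the deposited miRNA table by name, and both were present, 2 of 471 listed names. The table holds small RNA sequencing of EVs that were purified by insulator-based dielectrophoresis from the medium of Cal27 spheroids, with 3 libraries of EVs from a soft matrix (EVsoft) and 3 from a stiff matrix (EVstiff). Cal27 is an established human line of squamous epithelial cells from an oral carcinoma. Spheroids of both groups were grown on gels of growth factor reduced Matrigel in medium with EV-depleted serum, and their medium was collected on day 14. The matrix of EVsoft was 3 mg/mL Matrigel and that of EVstiff 12 mg/mL Matrigel, so that matrix stiffness and Matrigel concentration cannot be told apart. Each library is a bulk of many EVs, in which fewer EVs carrying an RNA and less of it per EV cannot be told apart. The labels call the libraries biological replicates, and the study describes them as separate isolations from separate culture repeats of this cell line.

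A canonical miRNA is cut from a hairpin precursor by Drosha and Dicer, is loaded into an Argonaute protein and represses mRNAs that pair with its seed, the bases behind its first nucleotide. miR-1246 differs from this picture, because its bases also occur in U2 snRNA, the RNA of the spliceosome that pairs with the branch point of introns. Reads under this name can therefore also be fragments of U2 snRNA, and these counts do not separate the sources. miR-1246 and miR-1290 have both been studied as RNAs of tumor-derived EVs and of patient serum. U2 snRNA is abundant in every nucleus, and a small RNA library that selects by length can retain its fragments of the right size.

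The mature sequences show how close these names are to each other and to U2 snRNA. They are given 5′ to 3′ from RefSeq (GRCh38.p14), with the seed, bases 2 to 8, in capitals:
hsa-miR-1246: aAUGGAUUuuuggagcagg
hsa-miR-1290: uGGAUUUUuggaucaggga

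Both are 19 bases long. Placed without gaps, bases 1 to 17 of miR-1290 lie on bases 3 to 19 of miR-1246 and 16 of these 17 are identical. The exception is U13G, where the first letter is the base of miR-1290 and the position is counted from its 5′ end. The shift moves the seed, so the names share most of their bases and no seed. Among the 413 listed names with a RefSeq mature sequence, no other name had the seed of either member, and none other shared a run of 10 or more bases with one. The longest run common to the pair was 12 bases.

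The matching stretch of U2 snRNA (RNU2-1, read from GENCODE 44 transcripts on GRCh38) is shown with 10 further bases on each side and the bases of miR-1246 in capitals:
RNU2-1: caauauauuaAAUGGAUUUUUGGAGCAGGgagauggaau

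All 19 bases of miR-1246 were identical to bases 94 to 112 of the 191 bases of RNU2-1. miR-1290 was identical at 18 of its 19 bases to bases 96 to 114 of the same RNA, with the substitution U13G as before. The differing base is in capitals in both:
RNU2-1 (bases 96 to 114): uggauuuuuggaGcaggga
hsa-miR-1290: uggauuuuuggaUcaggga

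The position of the mature miR-1246 on GRCh38 is chr2:176601024-176601042 on the minus strand. Its hairpin gene MIR1246 spans chr2:176600980-176601052, within an intron of the lncRNA LINC01117, which is annotated on the opposite strand. The mature miR-1290 lies at chr1:18897078-18897096 on the minus strand, and its hairpin gene MIR1290 at chr1:18897071-18897148, within an intron of ALDH4A1 on the same strand. ALDH4A1 codes for a mitochondrial aldehyde dehydrogenase. RNU2-1 is annotated at chr17:43233787-43233977. In the assembled autosomes and sex chromosomes the 19 bases of miR-1246 occurred 20 times, 19 of them inside genes annotated as snRNA and 1 inside MIR1246. The bases of miR-1290 occurred 2 times, in MIR1290 and at a position with no gene annotated on that strand. A read of the miR-1246 bases alone thus has 20 equal positions in this genome. How the authors' counting placed such reads is not given in the sources used here.

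The hairpin of MIR1246 gives its mature RNA from the 5′ arm. It is printed with the mature bases in capitals, to set the flanks beside those of U2 snRNA:
MIR1246: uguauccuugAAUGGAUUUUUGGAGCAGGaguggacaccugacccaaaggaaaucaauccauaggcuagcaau

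The total miRNA count was between 39211 and 66345 in EVsoft and between 28688 and 30685 in EVstiff, with no overlap. All 7 epithelial miRNAs of a marker list had reads, led by miR-205-5p, a miRNA of squamous epithelium, with 923 to 2078 reads in every library. Their summed share of counts was 6.41% to 7.14% in EVsoft and 5.17% to 5.36% in EVstiff, and 3 of the 6 members tested were lower in EVstiff by edgeR, beside 11.4% of all tested miRNAs. These 3 were of the miR-200 family. miR-429 of the same family had a log2 fold change of -0.76 that did not pass the test (adjusted p = 0.0745). Nor did miR-205-5p and miR-203a-3p pass, with 0.20 and 1.21 (adjusted p = 0.168 and 0.127). miR-141-3p, also of that family, was not tested and had 13, 16 and 25 reads in EVsoft and 6, 2 and 2 in EVstiff. Of 8 miRNAs of blood and serum, 6 were listed, with miR-144-3p and miR-150-5p absent, and their summed share was 0.326% to 0.61% in EVsoft and 0.656% to 0.927% in EVstiff. That list was mostly miR-122-5p, a liver miRNA, with 138 to 209 reads in every library. Of its 2 members tested by edgeR, miR-122-5p was higher in EVstiff (log2 fold change 1.03, adjusted p = 0.00295), beside 12.4% of all tested miRNAs. The other, miR-486-5p, did not pass (0.10, adjusted p = 0.946). Of 7 stromal and muscle miRNAs, 5 were listed, with miR-145-5p and miR-133a-3p absent, and their sum was 0.0211% to 0.109% in EVsoft and 0.0489% to 0.0673% in EVstiff. The part of these shares in the results below was not tested.

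miR-1246 was an abundant name in every library and took a larger share of EVstiff than of EVsoft. It had 683, 561 and 969 reads in the EVsoft libraries and 652, 557 and 571 reads in the EVstiff libraries. The raw reads of the groups overlapped, and the library with the most reads was an EVsoft library. Mean raw reads were 738 ± 209 (SD, n = 3) in EVsoft and 593 ± 51.3 (SD, n = 3) in EVstiff, a difference smaller than the spread within EVsoft (exact two-sided permutation test, p = 0.3, adjusted over the 22 such comparisons made 0.33).

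As a share of all miRNA counts of the library the order was different. The share was 1.49%, 1.43% and 1.46% in EVsoft and 2.12%, 1.94% and 1.92% in EVstiff. Every EVstiff library lay above every EVsoft library, and also above the upper end of each EVsoft library's 95% exact binomial interval, which was at most 1.60%. The lowest lower end in EVstiff was 1.77%. These intervals cover counting error only and leave out variation between cultures and isolations. Copies made by PCR are not independent molecules, so even for counting error the intervals can be too narrow. The means were 1.46% ± 0.0293 (SD, n = 3) and 2.00% ± 0.112 (SD, n = 3), a ratio of 1.37 (exact two-sided permutation test, p = 0.1, adjusted 0.138, where 0.1 is the smallest p that 3 against 3 allows).

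**Figure D1:**
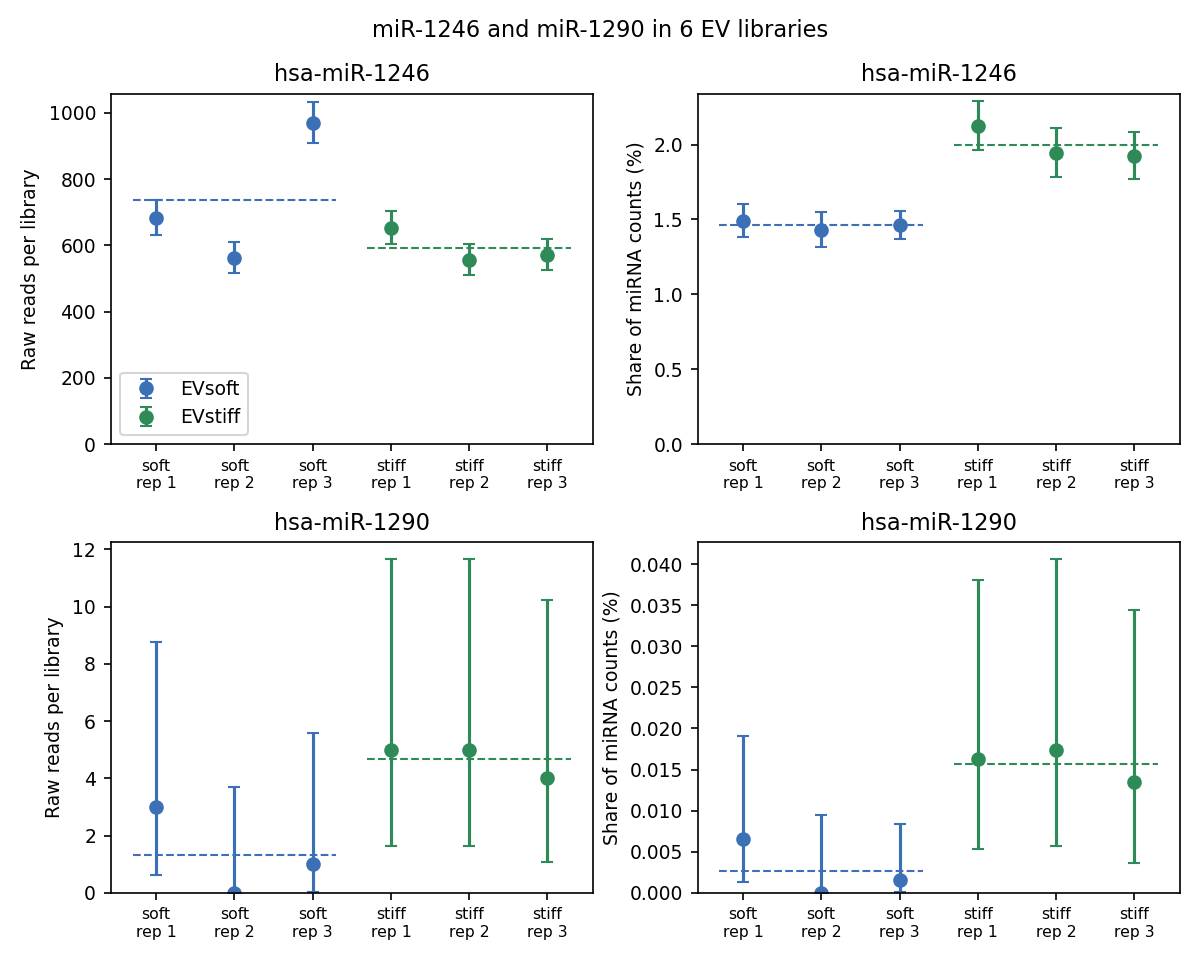
Raw reads (left) and share of miRNA counts in percent (right) of miR-1246 (top) and miR-1290 (bottom) in each EVsoft (blue) and EVstiff (green) library. Points are libraries, bars are 95% exact Poisson (reads) or binomial (share) intervals and dashed lines are group means. Raw reads of miR-1246 overlap between groups while its shares, 1.43% to 1.49% and 1.92% to 2.12%, do not, and the intervals of miR-1290 are wide.

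The change of scale rests on the library totals, since mean miR-1246 reads in EVstiff were 0.804 of those in EVsoft while mean totals were 0.588. Of the 105 miRNAs that passed the filter on low counts, 96 had fewer mean raw reads in EVstiff and 9 had more. Their median ratio was 0.54, and 16 had a higher ratio than miR-1246. Reads of miR-1246 thus dropped by less than those of most miRNAs of the same libraries. Library volumes had been adjusted before sequencing so that each would give a like number of reads, so that raw reads do not measure the amount of an RNA per EV sample. The number of all sequenced reads per library, miRNA or other, was not analysed here.

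With TMM scaling, the quasi-likelihood test of edgeR placed miR-1246 among the miRNAs that were higher in EVstiff. The log2 fold change, EVstiff over EVsoft, was 0.53 (standard error 0.09, adjusted p = 0.00295). Its groups did not overlap, with 15007, 13830 and 14465 counts per 1000000 TMM-scaled counts (CPM) in EVsoft and 21717, 20019 and 20584 CPM in EVstiff. Higher and not overlapping held for 22.9% of the tested miRNAs. An adjusted p of at most 0.05 was reached by 23.8% of the tested miRNAs, 12.4% higher in EVstiff (13) and 11.4% lower (12). The study's legend also asks for an absolute log2 fold change above 0.58, and 18.1% passed both this and the adjusted p. The value of miR-1246 lay close to this limit and its side depended on the scaling, below it with TMM and above it with upper quartile factors (0.58, unrounded just over the limit) and with quantile-normalized values (0.63). By p it stood at place 7 from the lowest of 105, and by fold change at place 17 from the highest, or 12 of the 13 called higher. The change was thus small beside those of most miRNAs called higher, and its standard error was small as well. Standard errors of edgeR fits were obtained as the absolute log2 fold change over the square root of the test's F statistic, and are approximate.

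**Figure D2:**
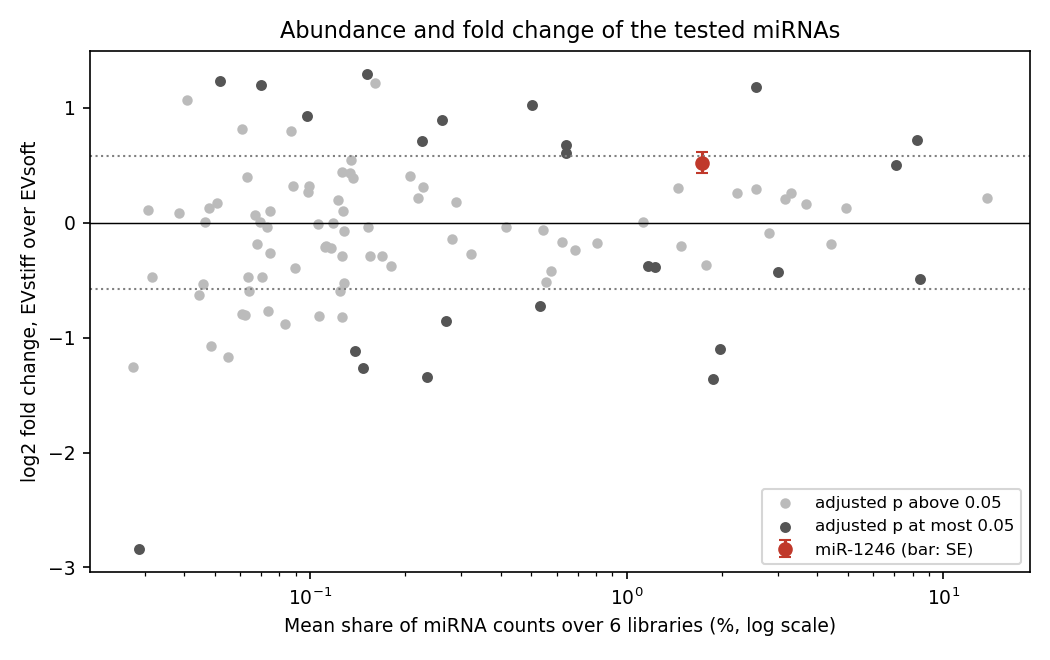
Mean share of miRNA counts over the 6 libraries (x axis, percent, log scale) against log2 fold change of EVstiff over EVsoft (y axis) for the 105 tested miRNAs, with dotted lines at 0.58 and -0.58. Dark points have an adjusted p of at most 0.05 and miR-1246 is red with its standard error. It sits among the more abundant names, just under the upper dotted line.

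The replicates of miR-1246 scattered about as little as counting alone gives. The coefficient of variation of its CPM was 4.08% in EVsoft and 4.16% in EVstiff, where Poisson counting at its mean reads gives 3.68% and 4.11%. The chi-square of its reads around the group means was 1.04 per degree of freedom. Over all tested miRNAs the median was 2.44, and miR-1246 stood at place 18 from the lowest of 105. Among the 24 tested miRNAs with a mean of at least 300 reads the median was 6.90 and miR-1246 was at place 3. For a miRNA that varies beyond counting, this value grows with its reads. Most of the 24 had more reads than miR-1246, so its low place partly follows from its read count.

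The fold change of miR-1246 followed the scaling between libraries. It was 0.58 with RLE factors and with upper quartile factors, 0.49 with TMMwsp factors and 0.45 with library size only, each with an adjusted p of at most 0.05 from the same edgeR test. Library sizes set by the summed reads of the 8 reference miRNAs, mostly let-7a-5p and miR-423-3p, gave 0.39 (standard error 0.16, adjusted p = 0.0866). When every library was given the same size, which compares raw reads, it was -0.31 (standard error 0.28, adjusted p = 0.325), and the median of all tested miRNAs was -0.89. Taken relative to the median of the tested miRNAs, miR-1246 was higher by between 0.56 and 0.59 under the 7 scalings, and its place by fold change was 17 under each of them. A scaling shifts all miRNAs of a library together, so that this near constancy follows from how the scalings are built and is no separate sign of stability.

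The background moved with the scaling as well. Against 13 higher and 12 lower with TMM, library size only gave 11 and 16, the reference miRNAs 6 and 15, and the same size for every library 0 and 57, with 0 higher at an unadjusted p under 0.05 in that edgeR fit. With the same size miR-1246 was in neither count.

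**Figure D3:**
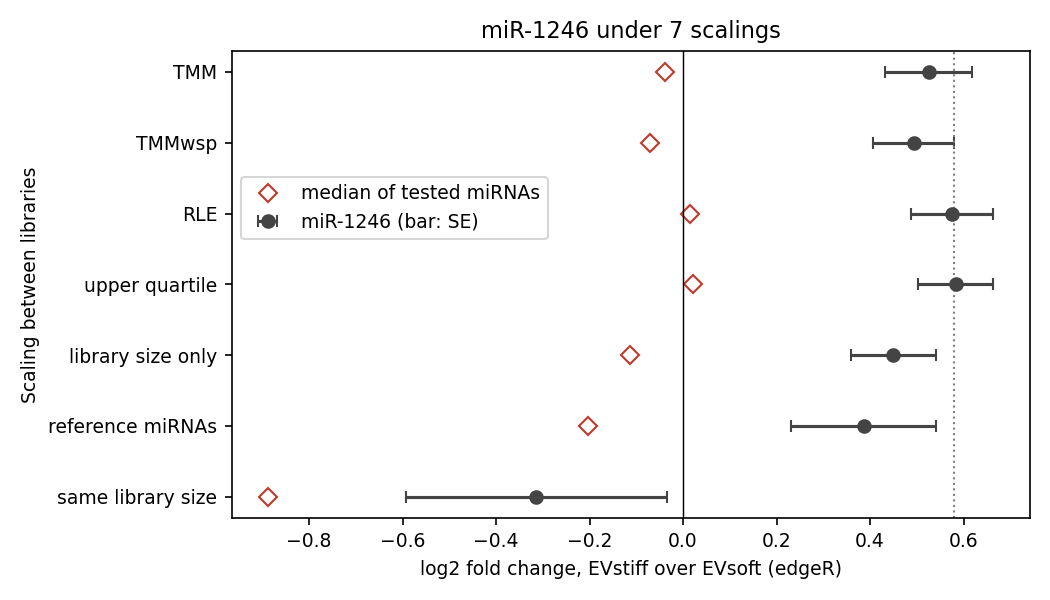
Log2 fold change of miR-1246, EVstiff over EVsoft, from edgeR under 7 ways of scaling between libraries, with its standard error (bars), and the median of the 105 tested miRNAs under the same scaling (red diamonds). The dotted line is 0.58. miR-1246 and the median shift together, from 0.58 and 0.02 with upper quartile factors to -0.31 and -0.89 with the same library size, so that the gap between them is 0.56 to 0.59.

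A ratio of reads within a library needs no scaling between libraries, but its result depended on the partner. Taken against the mean log2 reads of 8 miRNAs often used as qRT-PCR normalizers (1 read added to each), miR-1246 stood at 2.62, 2.76 and 2.70 in EVsoft and at 3.68, 3.44 and 3.05 in EVstiff. The groups did not overlap, with a difference of 0.69 on the log2 scale (exact two-sided permutation test, p = 0.1, adjusted 0.138). Against the mean of all tested miRNAs the difference was 0.58, also without overlap.

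With each normalizer alone the difference was above 0 for all 8, but the groups were apart for only 3 of them. These were miR-93-5p (1.38), a member of the cluster of miR-25 and miR-106b, miR-103a-3p (1.14) and miR-25-3p (0.75). The groups overlapped for miR-16-5p (1.20), miR-30c-5p (0.43), let-7a-5p (0.39), miR-423-3p (0.22) and miR-191-5p (0.03). Several of these partners had few reads, with 5 to 31 for miR-16-5p, 1 to 12 for miR-30c-5p and 8 to 44 for miR-103a-3p. The most abundant, let-7a-5p, had 1332 to 2770 reads and miR-423-3p had 783 to 1370. None of the 7 normalizers tested had an adjusted p of at most 0.05 in the edgeR fit, and their log2 fold changes ran from -0.88 for miR-93-5p to 0.32 for miR-191-5p. The result for miR-1246 was therefore smallest against miR-191-5p, and the spread of that ratio in EVsoft was 0.86 (SD, n = 3).

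**Figure D4:**
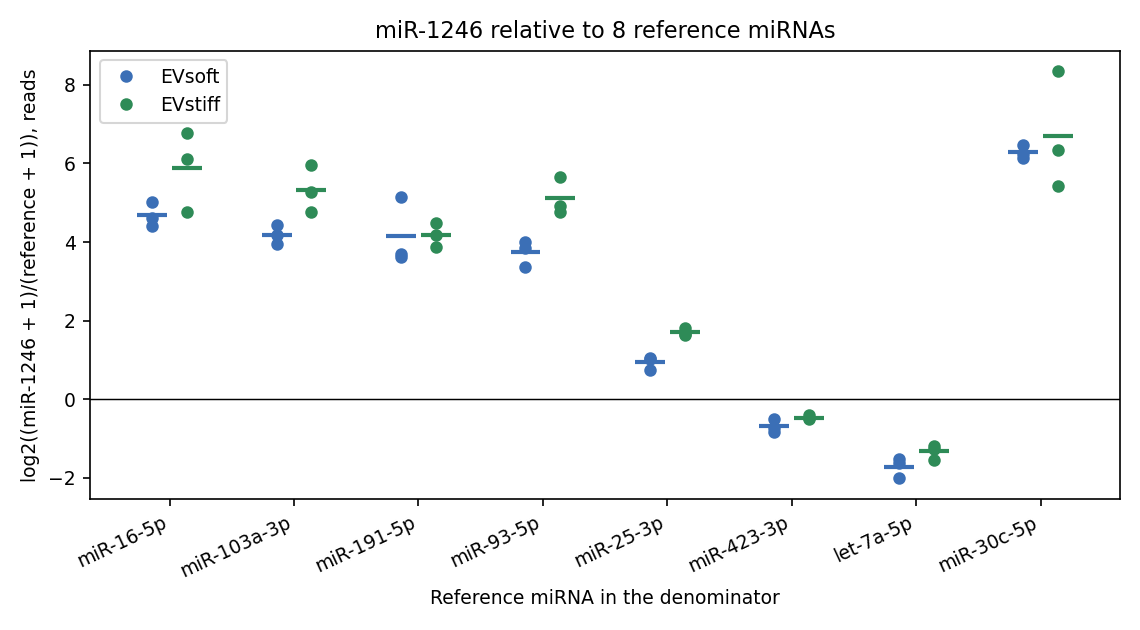
Log2 ratio of miR-1246 reads to the reads of each of 8 reference miRNAs (1 read added to each) in every EVsoft (blue) and EVstiff (green) library. Points are libraries and bars are group means. The groups are apart for miR-103a-3p, miR-93-5p and miR-25-3p and overlap for the other 5.

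By rank among all listed names miR-1246 was at place 18, 20 and 19 in EVsoft and at place 15 in each EVstiff library, so that the groups did not overlap (exact two-sided permutation test, p = 0.1, adjusted 0.138). By mean share over the 6 libraries it was at place 18 with 1.73%. Just above it were miR-146a-5p (1.87%), a miRNA induced by NF-kB signaling, and miR-222-3p (1.78%). Just below were miR-151a-3p (1.48%) and miR-128-3p (1.46%). These are shares of reads, and since a read covers a whole miRNA they were not divided by length.

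The order of these neighbours was not the same in both groups. miR-146a-5p and miR-222-3p had more reads than miR-1246 in 3 of 3 EVsoft libraries and in 0 of 3 EVstiff libraries. miR-151a-3p was above it in 2 of 3 EVsoft libraries and miR-128-3p in 1 of 3, and neither in any EVstiff library. Over the 6 libraries, the difference in share from miR-1246 was smaller than its SD for miR-146a-5p (0.14 ± 1.24 percentage points, SD, n = 6), miR-222-3p (0.0526 ± 0.61) and miR-151a-3p (-0.24 ± 0.47). It was slightly larger than its SD for miR-128-3p (-0.27 ± 0.25). This SD takes in the difference between the groups, so it does not measure the spread among replicates. In EVsoft the share was 2.73% ± 0.0404 for miR-146a-5p and 1.46% ± 0.0293 for miR-1246 (SD, n = 3). In EVstiff it was 1.01% ± 0.0220 and 2.00% ± 0.112 (SD, n = 3).

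The miRNAs whose TMM log2 CPM most resembled that of miR-1246 over the 6 libraries were miR-423-5p (Pearson r = 0.978), miR-378a-3p (0.958), miR-320a (0.958), miR-193b-5p (0.953) and miR-361-3p (0.949). These values describe 6 libraries that share their scaling factors and fall into 2 groups, which by itself raises r for miRNAs that differ between the groups. Of these 5, miR-423-5p, miR-320a and miR-193b-5p rose in EVstiff with log2 fold changes of 1.18, 0.72 and 1.29. For miR-378a-3p the log2 fold change was 0.16 (adjusted p = 0.168) and for miR-361-3p it was 0.82 (adjusted p = 0.0647). After the group means were subtracted, the closest were miR-221-3p (0.967), miR-30a-5p (0.871), miR-320a (0.8), let-7i-5p (0.795) and miR-193a-5p (0.78). miR-320a was in both groups of 5. The second set of values also rests on 6 libraries and holds the highest of all tested miRNAs. Since the spread of miR-1246 within groups was close to counting error, little can be read from these r values.

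miR-1290 was near the limit of detection, with 4 reads in all of EVsoft and 14 in all of EVstiff, against 2213 and 1780 of miR-1246. It had 3, 0 and 1 reads in the EVsoft libraries and 5, 5 and 4 reads in the EVstiff libraries. The read counts did not overlap, although EVstiff had the smaller totals. Of the 464 names with a read, 2 were higher in raw reads in every EVstiff library than in every EVsoft library, which is 0.431%. The other was miR-671-5p, with 0 reads in each EVsoft library and 2, 1 and 1 in EVstiff, and it was named after its values were seen. miR-1290 was removed by the filter for low counts, so it is not among the 105 miRNAs tested.

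The counting error of these reads was large. The 95% exact Poisson intervals were 0.619 to 8.77, 0 to 3.69 and 0.0253 to 5.57 reads in the EVsoft libraries, and 1.62 to 11.7, 1.62 to 11.7 and 1.09 to 10.2 in the EVstiff libraries, so that the intervals of the groups overlap. For the EVsoft library with none, the upper end of the two-sided intervals was 3.69 reads or 0.00941% of the miRNA counts, and the simpler one-sided limit of 3 counts for a count of 0 was 0.00765%. In shares, miR-1290 made up 0.00654%, 0% and 0.00151% of EVsoft and 0.0163%, 0.0174% and 0.0135% of EVstiff (exact two-sided permutation test, p = 0.1, adjusted 0.138). Over all libraries of a group there were 4 reads in 151414 and 14 reads in 89086. The share in EVstiff was 5.95 times that in EVsoft, with a 95% exact interval from 1.87 to 24.8 that covers counting error only and compares these libraries. The ratio was 16.6 (2.52 to 701) without EVsoft replicate 1, which held 3 of the 4 EVsoft reads, and 4.41 (1.38 to 18.4) without EVsoft replicate 2.

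Fitted with all 464 names and no filter, the log2 fold change of miR-1290 in the edgeR quasi-likelihood test was 2.44 with a standard error of 1.21 (adjusted p = 0.406). It depends on the prior count that the fit adds, so that its standard error is only approximate, and did not pass the threshold. The value ranged from 1.72 to 4.85 over the alternatives and was 3.73 without EVsoft replicate 1. In the library order miR-1290 held place 120, 119 and 130 in EVstiff, tied with 9 to 14 other names. In EVsoft it held place 173 and 241 where it had reads, places shared by 18 and 70 names with miR-1290 included.

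Since the pair shares most of its bases, the ratio of miR-1290 to miR-1246 reads was compared as well. Where they align, miR-1290 differs at 1 base from miR-1246 and from U2 snRNA. The mismatch setting of the counting is not given, so these counts do not separate the sources of miR-1290 reads. Reads of miR-1290 were 0.439%, 0% and 0.103% of those of miR-1246 in EVsoft and 0.767%, 0.898% and 0.701% in EVstiff. On the log2 scale with 1 read added to each, the ratio was -8.49 ± 0.94 (SD, n = 3) in EVsoft and -6.71 ± 0.16 (SD, n = 3) in EVstiff, without overlap (exact two-sided permutation test, p = 0.1, adjusted 0.138). The difference of 1.78 became 2.18 with 0.5 reads added and 1.16 with 3 reads added. With 0 to 3 reads of miR-1290 per EVsoft library, this ratio was measured only coarsely there.

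Other names that overlap or resemble snRNA, snoRNA, tRNA or rRNA were scarce. Of a list of 27 such names, miR-1246 and miR-1290 included, 4 were in the table. The other 2 were miR-664a-5p, whose hairpin overlaps a snoRNA, with 9, 1 and 11 reads in EVsoft and 5, 7 and 3 in EVstiff, and miR-1291, also from a snoRNA, with 1 read in 1 EVstiff library. Only miR-1246 of the list was tested, and it rose, against a median log2 fold change of -0.04 over all tested miRNAs. The summed share of the 4 names was 1.43% to 1.52% in EVsoft and 1.95% to 2.16% in EVstiff, nearly all of it miR-1246.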

How the data were processed

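Small RNA of EVs from Cal27 spheroids was sequenced in 6 libraries, and groups and replicate numbers came from the labels. RNA was made into libraries by adapter ligation and PCR, and inserts of miRNA length were cut from a gel. The deposited values are raw counts of reads per miRNA name, which the authors obtained with RefSeq features after quality control in exceRpt. The submitters' processing notes name hg38, while the aligner, its mismatch setting and any removal of duplicate reads are not given in the sources used here. In R 4.3.3, counts were filtered with filterByExpr (105 of 471 names kept), scaled by TMM and tested across all kept miRNAs with the quasi-likelihood test of edgeR 4.0.16 and Benjamini-Hochberg adjustment. DESeq2 1.42.0, limma 3.58.1, other scalings, filters and each library left out in turn were alternatives. The procedure was tested on simulated data. Single measures were compared with exact two-sided permutation tests. Sequences came from RefSeq by name (413 names matched) and positions from GENCODE 44 on GRCh38, the build the notes name, searched on chromosomes 1 to 22, X and Y.

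The miRNAs named are both members, 8 reference miRNAs, the 2 neighbours on each side by mean share, the 5 most alike by each measure, names sharing a seed or a run of 10 bases, and members of the marker and fragment lists. Members and lists were chosen with earlier results of these data known. Totals of 28688 to 66345 counts put 3 reads at 44.8 to 108 CPM, which limits what can be said of rare names.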

Additional observations from a re-analysis of the deposited data

How the results depend on the processing

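The log2 fold change of miR-1246 kept its direction and an adjusted p of at most 0.05 in 19 of 22 alternatives, among them the 6 fits that left out a library (0.47 to 0.57, adjusted p from 0.00141 to 0.0188). It passed 0.58 in 2 of the 22. It was 0.39 with the reference miRNAs as library size and 0.45 with no filter on low counts (adjusted p = 0.0922), both past the threshold no longer, and -0.31 when all libraries were given the same size. The log2 ratio of mean shares, 0.45, was likewise -0.31 in raw reads. For miR-1290 the log2 fold change was above 0 in all 20 alternatives that gave one (1.72 to 4.85, and 2.00 to 3.73 with a library left out), and only limma-voom, at 2.65 (adjusted p = 0.0387), passed the threshold, while DESeq2 gave no adjusted p. The count of 25 miRNAs past an adjusted p of 0.05 became 57 with the same library size and 16 with quantile-normalized values. The causes were not tested. The within-library ratios kept their direction throughout. Replicate numbers gave no clear pairing of the samples (correlations of same-numbered libraries' deviations -0.13, 0.13 and -0.03). For replicate 2 the own number correlated best (0.13, highest other -0.02). For replicates 1 and 3 it did not (highest other 0.20 for each). With 3 libraries per group these values cannot decide whether same-numbered samples belong together. With the replicate number as a block (replicate block) the log2 fold change of miR-1246 was 0.53 (adjusted p = 0.00644), that of miR-1290 2.60, and 23 miRNAs passed in place of 25.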

Other observations

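The differing base of the pair falls in GGAG, a motif of 4 bases that has been described in miRNAs sorted into EVs. The mature miR-1246 holds GGAG and miR-1290 does not. GGAG occurred in 15.98% of the 413 listed mature sequences (mature strand only) and in 15.70% of all 2370 human mature sequences in the RefSeq table. Of the tested miRNAs with a sequence, 8 held it, of which miR-1246 and miR-122-5p (2) were higher in EVstiff in the edgeR quasi-likelihood test (adjusted p at or under 0.05). The median log2 fold change of the 8 was 0.30, beside -0.03 over the 98 tested miRNAs with a sequence, of which 12 were higher and 10 lower. The 8 include miR-1246 itself, and so few names allow no reading about the motif.

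At 19 bases both members are short, since 3.63% of the 413 listed mature sequences have 19 bases or fewer and the median length is 22. Of the 98 tested miRNAs with a sequence, miR-1246 and miR-320d are that short. Both were among the 12 called higher, and with 2 names nothing can be read from this about short miRNAs. The log2 fold change of miR-320d, which was singled out after its values were seen, was 0.93 (standard error 0.25, edgeR quasi-likelihood test, adjusted p = 0.0226).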
